A study of Mus musculus with 12 samples.

Results

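The array carried 1104 probes whose names begin with humanlincRNA, out of 60930 different probes that are not controls, and these 1104 were chosen by that prefix alone. The prefix reads as human long intergenic noncoding RNA (lincRNA), and the files do not explain it further. The RNA hybridised to the probes came from mouse left ventricle (LV). The files give neither the sequence of a probe nor its genome position, so which mouse transcript each one reads cannot be stated here and no sequence is printed. The probes served as comparison were the 58141 whose names begin with ASMM10P, which make up most of the array. A further 649 probes carry the prefix mouselincRNA. LV RNA from 12 C57BL/6J mice aged 9 to 12 weeks was measured, with 1 array per mouse and 3 separate mice in each of 4 groups. Every mouse carried a transgene, restricted to cardiomyocytes, for a mutant β1-adrenergic receptor (β1AR) that G protein-coupled receptor kinases (GRKs) cannot phosphorylate, and there was no group without it. TG denotes GRK-β1AR mice with that transgene only. DTG denotes GRK-β1AR/miR-150 double transgenic mice, which also overexpressed the microRNA miR-150 from the CAG promoter, a promoter active in many cell types and not restricted to cardiomyocytes. Mice of both genotypes received vehicle or isoproterenol (ISO), a β-agonist, for 1 week, which gave the 4 groups named TG or DTG with vehicle or ISO. In each group 1 of the 3 mice was labelled female.

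LincRNAs are long transcripts made between protein-coding genes. Many are present at low levels and in few tissues, and their sequence is usually less well conserved between mammals than that of coding exons, while their position beside a conserved gene is often kept. In the heart, some lincRNAs act on chromatin during development and others change in pressure overload or after infarction. Whether a set of probes named for human lincRNAs gives signal in mouse LV, and whether that signal moves with ISO or with miR-150, were the questions these arrays could address. The labelled tissue was not checked against cardiomyocyte markers. The files pair 15 probes with transcript accessions, none of them a humanlincRNA probe (0), and 0 of the 15 matched the cell type markers listed for this check. In tissue RNA, fewer cells of a type and less RNA per cell cannot be told apart.

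Signal was expressed as a log2 level, the log2 of the background-subtracted signal minus that of the 75th percentile of the same array, so that 0 is the 75th percentile and -5 is a 32nd of it. That percentile was 241 to 534 signal units. Levels of 1 probe are compared between arrays, and levels of different probes are not ranked, because probes hybridise with different efficiency. A probe was called detected on an array where the scanner software marked it well above background. The dimmest detected probe of any kind had a log2 level of -3.22 on TG vehicle 1 and -5.75 on DTG ISO 3, so the level needed for detection differed between arrays. Negative control spots were marked as detected in 0.649% to 2.27% of cases. No humanlincRNA spot was saturated (0 in all), and 12 spots of 6 humanlincRNA probes were left out as outliers.

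The arrays were scanned in 3 runs. Scan 1 held DTG ISO 1, 2 and 3 with DTG vehicle 3, scan 2 held replicates 1 and 2 of TG vehicle, TG ISO and DTG vehicle, and scan 3 held TG vehicle 3 and TG ISO 3. DTG ISO and TG ISO never shared a scan, so for that comparison scan and group cannot be told apart. Of the 12 arrays, 3 stood apart from their labelled group, as described by Pearson correlations across the 123 humanlincRNA probes detected on all 12 arrays, which share the same libraries and are not independent replicates. TG vehicle 3 correlated on average at 0.882 with TG vehicle 1 and 2 but at 0.955 with TG ISO 1 and 2. TG ISO 3 correlated at 0.921 with TG ISO 1 and 2 but at 0.968 with TG vehicle 1 and 2. DTG vehicle 3 correlated at 0.898 with DTG vehicle 1 and 2 but at 0.973 with DTG ISO. These arrays therefore went against their labels, and results that rest on them are given with and without them.

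Most humanlincRNA probes gave little or no signal in mouse LV. On single arrays, 14.6% to 45.6% of them were detected, against 54.6% to 80.8% of ASMM10P probes and 17.3% to 49.8% of mouselincRNA probes. The humanlincRNA share was the lowest of these 3 classes on each of the 12 arrays. Over all arrays, 513 humanlincRNA probes (46.5%) were never detected, 210 (19%) were detected on 1 or 2 arrays, 258 (23.4%) on 3 to 11 arrays and 123 (11.1%) on all 12. Among ASMM10P probes, 15.2% were never detected and 52% were detected on all 12 arrays.

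The share of humanlincRNA probes detected was 14.6%, 24.3% and 21.7% on the TG vehicle arrays, 22.6%, 24.8% and 18.3% on the TG ISO arrays, 20.7%, 26.1% and 33.5% on the DTG vehicle arrays, and 29.7%, 34.4% and 45.6% on the DTG ISO arrays. All 3 DTG ISO arrays lay above all 3 TG ISO arrays, whereas the vehicle groups overlapped, and the highest array outside DTG ISO was DTG vehicle 3, from the same scan. Group means were 20.2% ± 5.02 (SD, n = 3) for TG vehicle, 21.9% ± 3.28 for TG ISO, 26.8% ± 6.46 for DTG vehicle and 36.5% ± 8.17 for DTG ISO. ASMM10P probes moved in the same order, with means of 64.2% ± 8.33, 65.7% ± 5.13, 68.8% ± 4.87 and 75% ± 5.33.

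A threshold tied to each array's own 75th percentile was used beside the detection flag, because the flag depends on the background of the array. Levels above -5 were reached by 33.5% to 36.3% of humanlincRNA probes on the 4 arrays of scan 1 and by 23.8% to 29.5% on the other 8 arrays. For ASMM10P probes the shares were 73.5% to 75.5% and 69.8% to 71.9%. DTG vehicle 3, at 35.4%, lay among the DTG ISO arrays, and the other DTG vehicle arrays, at 28.2% and 27.4%, did not. As this rests on 1 array that also went against its label, the scan and that array cannot be told apart here. The upper end showed the same split, with 3.53% to 3.9% of humanlincRNA probes above the 75th percentile on scan 1 arrays and 2.45% to 3.08% on the others. The ASMM10P share was 25.7% to 25.8% on all 12. The scaling itself sets that share, since these probes make up most of the array, so it is no contrast. With detection set instead at a raw spot signal of at least 2 times the local background, the scan 1 arrays gave 26.2% to 31.9% and the others 19.8% to 32.9%, which overlap. Against the 95th percentile of the negative controls, the ranges were 49.2% to 68.7% and 29.6% to 52.4%, which also overlap.

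The 123 humanlincRNA probes detected on all 12 arrays lay on both sides of the 75th percentile. Their mean log2 levels ran from -3.42 to 5.37 with a median of -1.58, and the quartiles were -2.43 and -0.19. Of these probes, 21 were above the 75th percentile on every array and 79 were below it on every array. The remaining probes crossed it.

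How far a probe moved across the 12 arrays, whatever the group, was also described for these 123. The median range from the lowest to the highest array was 1.57 on the log2 scale, against 1.21 for all 30680 probes detected on every array. A range of at most 1 was found for 25 humanlincRNA probes, and a range of at least 3 for 13. The steadiest of them, humanlincRNA2438+_P1, had levels of 5.36, 5.28 and 5.35 in TG vehicle, 5.41, 5.46 and 5.43 in TG ISO, 5.37, 5.48 and 5.37 in DTG vehicle, and 5.12, 5.38 and 5.46 in DTG ISO, a range of 0.36. The next steadiest, humanlincRNA1396-_P1, ranged over 0.57, with group means of -0.53, -0.46, -0.43 and -0.76 in the same order, and humanlincRNA1894+_P1 over 0.58, with group means of -2.67, -2.69, -2.42 and -2.44. Some groups of these steady probes were free of overlap all the same: for humanlincRNA1396-_P1 the DTG ISO arrays lay just below those of TG ISO and DTG vehicle, and for humanlincRNA2438+_P1 the TG vehicle arrays lay just below those of TG ISO and DTG vehicle, as did the TG ISO arrays of humanlincRNA1894+_P1 below DTG vehicle.

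The most variable of the 123 was humanlincRNA1050+_P1, with levels of 2.41, 1.12 and 2.43 in TG vehicle, 3.24, 3.84 and 2.56 in TG ISO, 3.48, 2.46 and 2.0 in DTG vehicle, and 0.89, 1.25 and -0.55 in DTG ISO. Its mean was highest in TG ISO and lowest in DTG ISO, the latter without overlap with TG ISO or DTG vehicle, and its range was 4.38. humanlincRNA0459-_P1 followed with levels of -0.77, -2.51 and -1.13 in TG vehicle, -2.29, -2.15 and -2.15 in TG ISO, -0.98, -2.58 and 1.17 in DTG vehicle, and 1.59, 0.41 and 1.25 in DTG ISO. humanlincRNA0931+_P1 had levels of -1.10, -3.20 and -1.55 in TG vehicle, -1.66, -2.43 and -3.01 in TG ISO, -1.35, -2.97 and 0.66 in DTG vehicle, and 0.78, -0.15 and 0.74 in DTG ISO. In both probes the 4 arrays of scan 1 were above the other 8, DTG vehicle 3 included, and their levels correlated at r = 0.97 over the 12 arrays. Among the 123, 24 probes (19.5%) had all 4 scan 1 arrays above all 8 others and 5 (4.07%) had them all below. Among all probes detected on every array, these shares were 8.62% and 6.83%. Within DTG vehicle, replicate 3 was above both other arrays for 63 of the 123 and below both for 32.

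Nearly every number in the humanlincRNA series was represented by a pair of probes, 1 with a plus and 1 with a minus at the end of the name. There were 557 numbers, of which 547 had both, 2 had the plus probe only and 8 the minus probe only. The files do not define the sign, and it is used here as part of the name. Detection was spread evenly over the signs, with 288 of 549 plus probes and 303 of 555 minus probes detected on at least 1 array. Among pairs with any signal on an array, having 1 of the 2 probes detected was more common than having both. On single arrays, 24.1% to 48.4% of pairs had exactly 1 probe detected and 2.56% to 21.4% had both. Over the 12 arrays, neither probe was ever detected for 125 pairs, only the plus probe for 123, only the minus probe for 135, and each of them at least once for 164. In 28 pairs the plus probe was detected on all 12 arrays and the minus probe on none, and in 30 pairs the reverse held.

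In 6 pairs both probes were detected on every array, and their members did not always move together. The correlation of the 2 levels over the 12 arrays was 0.93 for humanlincRNA1364, 0.84 for humanlincRNA1396, 0.81 for humanlincRNA0459 and 0.81 for humanlincRNA1016. It was -0.016 for humanlincRNA2163 and -0.30 for humanlincRNA1050. In the last of these, the plus probe ranged over 4.38 while the minus probe, humanlincRNA1050-_P1, stayed between -3.19 and -1.67. These correlations rest on the same 12 arrays and carry the split by scan described above.

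For the comparisons between groups, a limma fit was made over all 45145 probes that were detected on 3 or more arrays, 381 of them humanlincRNA probes. A probe can pass this filter through 1 group alone, which favours a difference between that group and the others. Of the 381, 103 were not detected on any TG ISO array, 55 on no TG array, and 43 on scan 1 arrays only, so counts over the 381 are descriptions and are read beside the same counts over all probes. Adjusted p-values are Benjamini-Hochberg values over all probes tested, and a probe was called at an adjusted p under 0.05.

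For ISO in TG mice, few humanlincRNA probes differed in the arrays as labelled. Of the 381 humanlincRNA probes, 0 were called by limma, as were 0% of all probes. At an unadjusted p under 0.05, 12 humanlincRNA probes were higher and 6 lower in TG ISO, and the shares over all probes were 0.997% higher and 0.84% lower. The methods' t-test also called 0, with 10 humanlincRNA probes (2.63%) at an unadjusted p under 0.05, beside 1.8% of all probes. The median log2 fold change was 0.03 over the 381 and -0.0050 over all probes, but -0.13 over all 1104 humanlincRNA probes without the filter. Over the probes tested, leaving out TG vehicle 3 turned it to -0.10 and leaving out TG ISO 3 to -0.038, while leaving out any other array gave up to 0.14. The arrays of the 2 groups did not overlap for 19 higher and 9 lower humanlincRNA probes, beside 2.25% and 2.28% of all probes. Among the 123 detected on every array, these counts were 5 and 2, beside 1.98% and 2.1% of all probes detected on every array.

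The rule for naming was met by 3 humanlincRNA probes with higher signal in TG ISO and by 0 with lower signal. humanlincRNA1563+_P1 had levels of -4.64, -5.32 and -4.83 in TG vehicle and -2.49, -2.62 and -3.35 in TG ISO. It was detected on 0 of 3 TG vehicle arrays and 3 of 3 TG ISO arrays, and the difference was at least 2.77-fold (adjusted p = 0.999). The probe was also detected on 2 of 3 DTG vehicle arrays, where levels were -4.28, -2.92 and -3.75, and on 3 of 3 DTG ISO arrays, where they were -2.96, -2.70 and -2.81. Its minus partner was not detected on any array (0 of 12). Of 2 probes detected on 2 of 3 TG vehicle and 3 of 3 TG ISO arrays, humanlincRNA2333+_P1 moved from -3.35, -3.31 and -3.46 to -2.19, -3.08 and -2.87 (log2 fold change 0.67, SE 0.26, adjusted p = 0.999), and humanlincRNA2262+_P1 moved from -3.93, -3.65 and -4.47 to -3.48, -3.52 and -3.44 (0.53, SE 0.23, adjusted p = 0.999). humanlincRNA1222+_P1 went from 0 of 3 to 3 of 3 arrays detected, at least 1.49-fold, with levels of -5.43, -5.24 and -5.92 in TG vehicle and -3.73, -4.37 and -3.05 in TG ISO (adjusted p = 0.999). In DTG ISO its usable levels were -3.22 and -7.77, so its spread there was wide.

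This comparison depended on the 2 arrays that went against their labels. Each lay nearer to the other TG group, so leaving both out widens the difference by construction, and the calls below are descriptions. Without TG vehicle 3 and TG ISO 3, 30 of 380 humanlincRNA probes (7.9%) were called, 10 higher and 20 lower in TG ISO, beside 17.1% of all probes, and the median log2 fold change over the humanlincRNA probes tested turned to -0.16. Over the arrays of scan 2 only, 31 (8.16%) were called, 10 higher and 21 lower, beside 11.5% of all probes. Both sets compare the same 4 arrays and differ in the arrays that add to the spread, so the lower share of humanlincRNA probes called is 1 observation, not 2. In the scan 2 set humanlincRNA1563+_P1 was called as higher in TG ISO (limma adjusted p = 0.0334), whereas humanlincRNA2333+_P1 and humanlincRNA2262+_P1, with log2 fold changes of 0.70 and 0.29, were not called. Each group keeps 2 arrays in these fits.

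The same treatment was compared in DTG mice. Again 0 of 381 humanlincRNA probes were called, beside 0% of all probes, and 46 were higher and 4 lower in DTG ISO at an unadjusted p under 0.05, where all probes gave 3.92% and 1.9%. The methods' t-test called 0, with 22 (5.79%) at an unadjusted p under 0.05, close to the 5.39% of all probes. The median log2 fold change was 0.32 over the 381 and 0.037 over all probes, but -0.11 over all 1104 humanlincRNA probes without the detection filter and -0.052 over the 381 under normexp background correction. Leaving out 1 array gave medians of 0.22 to 0.50, the highest without DTG vehicle 3. Without overlap between the groups, 43 humanlincRNA probes were higher and 12 lower, beside 7.1% and 5.93% of all probes. Among the 123 detected on every array, which could not pass the filter through 1 group, 8 were higher and 10 lower without overlap. The shares over all probes detected on every array were 5.39% and 7.23%. At an unadjusted p under 0.05, 7 were higher and 4 lower (8.94% in all, beside 5.28%), so the excess of higher probes was small or turned there.

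humanlincRNA0229-_P1 entered the fit through the DTG ISO arrays alone, so its values are a description and its p is no independent support. It had levels of -5.38, -5.76 and -6.97 in TG vehicle, -6.86, -6.77 and -6.04 in TG ISO, -5.39, -5.33 and -5.17 in DTG vehicle, and -3.36, -3.55 and -3.68 in DTG ISO. It was detected on the 3 DTG ISO arrays and on 0 of the other 9, and DTG vehicle 3 lay with the undetected arrays although it shared the scan of DTG ISO. The difference from DTG vehicle was at least 2.17-fold (adjusted p = 0.82). Its plus partner was not detected on any array (0 of 12).

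humanlincRNA1016-_P1, detected on all 12 arrays, had levels of 1.23, 0.21 and 1.32 in DTG vehicle and 2.29, 2.18 and 2.13 in DTG ISO, a log2 fold change of 1.28 (SE 0.33, adjusted p = 0.82). Within scan 1 it was 0.88, set against DTG vehicle 3 alone, which went against its label. The plus partner of this probe was also detected on every array, with group means of -2.14 in DTG vehicle and -1.64 in DTG ISO. humanlincRNA1655-_P1 had levels of -6.42, -6.75 and -4.53 in DTG vehicle and -3.58, -3.68 and -3.99 in DTG ISO (adjusted p = 0.82). DTG vehicle 3 was its nearest DTG vehicle array to DTG ISO and the only one of the 3 on which it was detected, and no fold is given, since the other DTG vehicle levels were not well above background.

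Lower signal in DTG ISO was found for humanlincRNA1050+_P1, whose levels are given above, with a log2 fold change of -2.12 (SE 0.57, adjusted p = 0.82). Within scan 1, where DTG vehicle 3 is the only vehicle array and went against its label, it was -1.47. humanlincRNA2274-_P1 had levels of -1.80, -2.34 and -3.06 in TG vehicle, -2.70, -2.10 and -1.58 in TG ISO, -0.39, -1.36 and -0.60 in DTG vehicle, and -1.86, -1.74 and -1.91 in DTG ISO. It stood highest in DTG vehicle, with the other 3 groups overlapping, and its log2 fold change with ISO was -1.05 (SE 0.38, adjusted p = 0.82) and -1.24 within scan 1, again against DTG vehicle 3 alone.

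Detection on 3 of 3 DTG ISO arrays and 0 of 3 DTG vehicle arrays was found for 4 humanlincRNA probes (0.362%), and the reverse for 0, beside 0.272% and 0% of all probes. For all but humanlincRNA0229-_P1 the lower bound of the difference was under 1.5-fold. humanlincRNA0623+_P1 had levels of -6.49, -7.12 and -5.64 in DTG vehicle and -4.50, -4.28 and -5.0 in DTG ISO, at least 1.04-fold higher (adjusted p = 0.82). humanlincRNA0388-_P1 had levels of -4.16, -5.12 and -5.30 in DTG vehicle and -4.23, -4.08 and -5.11 in DTG ISO, with a bound of 1.13-fold. Its log2 fold change of 0.39 had an SE of 0.41 (limma adjusted p = 0.93), and the direction turned under normexp. Its groups overlapped, and DTG ISO 3 was marked as detected at a lower level than that of DTG vehicle 1, which was not. Without DTG vehicle 3, which lay near DTG ISO, 21 humanlincRNA probes (5.51%) were called for ISO in DTG mice, beside 1.75% of all probes. There 130 (34.1%) had an unadjusted p under 0.05, beside 15.2%. Without DTG vehicle 1 that count fell to 16 (4.2%, beside 1.66%), and without DTG vehicle 2 to 19 (4.99%, beside 2.79%). With scan as a block, 0 were called, 5 (1.31%) had an unadjusted p under 0.05, close to the 1.17% of all probes, and the median was -0.051 over the 381. Under that block DTG vehicle 3 is the only vehicle array set against DTG ISO. As it lay near DTG ISO, a lack of difference there decides nothing.

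Genotype was compared first in vehicle-treated mice. Of the 381 humanlincRNA probes 0 were called, beside 0% of all probes, and 50 were higher and 2 lower in DTG vehicle at an unadjusted p under 0.05, where all probes gave 4.12% and 1.12%. The methods' t-test called 0, with 19 (4.99%) at an unadjusted p under 0.05, beside 2.37% of all probes. The median log2 fold change was 0.39 over the 381 and 0.040 over all probes, but -0.20 over all 1104 humanlincRNA probes without the filter and -0.018 over the 381 under normexp. It was 0.18 without DTG vehicle 3 and 0.23 without TG vehicle 3, and leaving out any other array gave 0.39 to 0.54. Groups without overlap were counted for 53 humanlincRNA probes higher and 0 lower in DTG vehicle, beside 5.25% and 2.49% of all probes. Among the 123 detected on every array, these counts were 18 and 0, beside 3.86% and 2.65% of all probes detected on every array.

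humanlincRNA0955+_P1 had levels of -5.26, -4.89 and -5.39 in TG vehicle, -5.50, -3.53 and -4.25 in TG ISO, -3.20, -3.55 and -1.64 in DTG vehicle, and -1.95, -1.99 and -2.87 in DTG ISO. It was detected on 0 of 3 TG vehicle and 3 of 3 DTG vehicle arrays, at least 2.82-fold apart (adjusted p = 0.863). humanlincRNA1612-_P1 had levels of -5.07, -4.87 and -5.67 in TG vehicle, -4.59, -4.29 and -4.48 in TG ISO, -4.12, -3.97 and -3.53 in DTG vehicle, and -3.77, -3.26 and -3.13 in DTG ISO. All 6 DTG levels of this probe lay above all 6 TG levels. Its detection also went from 0 of 3 to 3 of 3 between the vehicle groups, at least 1.33-fold (adjusted p = 0.863). The third probe named for this comparison, humanlincRNA2274-_P1, was higher in DTG vehicle by a log2 fold change of 1.62 (SE 0.38, adjusted p = 0.863) and of 1.19 within scan 2. No humanlincRNA probe with lower signal in DTG vehicle met the rule for naming.

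Within scan 2, which held 2 arrays of each vehicle group, the tilt toward higher signal in DTG was smaller. There 0 humanlincRNA probes were called by limma, 21 were higher and 19 lower at an unadjusted p under 0.05 (10.5% in all, beside 3.46% of all probes), and the median log2 fold change was 0.073. Without TG vehicle 3 and TG ISO 3, 0 were called by limma, and 38 were higher and 3 lower at an unadjusted p under 0.05 (10.8% in all, beside 4.72% of all probes).

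The widest difference was between the genotypes after ISO, the comparison in which the groups shared no scan. Of the 381 humanlincRNA probes 0 were called by limma, beside 0% of all probes, and the lowest adjusted p was 0.0616, of a probe that entered the fit through DTG ISO alone. At an unadjusted p under 0.05, 133 were higher and 7 lower in DTG ISO, beside 16.7% and 10.1% of all probes. The methods' t-test called 20 (5.26%), all higher in DTG ISO, beside 2.39% of all probes, with 156 (41.1%) at an unadjusted p under 0.05, beside 26.6%. The median log2 fold change was 0.68 over the 381 and 0.12 over all probes, but -0.12 over all 1104 humanlincRNA probes without the filter, of which 46.8% were higher. Of those 1104, 164 were higher and 39 lower at an unadjusted p under 0.05 (18.4% in all, beside 20.8% of all probes), so the probes past that threshold were mostly higher without the filter too. Groups did not overlap for 181 humanlincRNA probes higher and 14 lower in DTG ISO, and for 23.7% and 14.1% of all probes. Among the 123 humanlincRNA probes detected on all 12 arrays, which could not pass the filter through 1 group, the median was 0.47 and 30 were higher and 6 lower at an unadjusted p under 0.05 (29.3% in all). All 30680 probes detected on every array gave a median of 0.044, with 4140 higher and 4134 lower (27% in all). Normexp background correction moved the median of all probes to -0.073, with 4149 higher and 7313 lower at an unadjusted p under 0.05 (25.4% in all). Under it the median of the 381 was 0.0087, with 40 higher and 15 lower (14.4% in all).

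That probe, humanlincRNA0229-_P1, was detected on 0 of 3 TG ISO arrays, and its difference, a description as above, was at least 1.86-fold (adjusted p = 0.0616). humanlincRNA2433-_P1 had levels of -5.23, -5.46 and -4.68 in TG vehicle, -5.56, -6.91 and -6.05 in TG ISO, -5.12, -4.67 and -4.20 in DTG vehicle, and -3.94, -3.84 and -3.81 in DTG ISO. Its highest 3 arrays were the DTG ISO arrays, followed by DTG vehicle 3. It was detected on 0 of 3 TG ISO arrays, and the difference was at least 1.48-fold (adjusted p = 0.0717). humanlincRNA1283+_P1 had levels of -5.36, -4.55 and -4.90 in TG vehicle, -6.00, -5.38 and -5.06 in TG ISO, -4.63, -4.41 and -3.42 in DTG vehicle, and -3.48, -3.53 and -3.02 in DTG ISO. Here DTG vehicle 3 lay among the DTG ISO arrays, TG ISO was again detected on 0 of 3, and the difference was at least 2.12-fold (adjusted p = 0.0719).

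Lower signal in DTG ISO than in TG ISO was found for humanlincRNA1050+_P1, with a log2 fold change of -2.68 (SE 0.57, adjusted p = 0.0725). humanlincRNA0324-_P1 had levels of 2.20, 2.16 and 2.35 in TG vehicle, 2.32, 2.77 and 1.90 in TG ISO, 1.91, 2.35 and 0.85 in DTG vehicle, and 1.17, 1.22 and 0.73 in DTG ISO. All 4 scan 1 arrays were below the other 8, DTG vehicle 3 among them, and the log2 fold change of -1.29 (SE 0.36, adjusted p = 0.0853) was -0.088 with scan as a block. humanlincRNA0806+_P1 had levels of -1.81, -2.0 and -1.50 in TG vehicle, -0.80, -0.52 and -1.84 in TG ISO, -1.53, -1.66 and -2.39 in DTG vehicle, and -2.38, -1.88 and -2.25 in DTG ISO. For this probe the TG ISO array nearest to DTG ISO was TG ISO 3, and the log2 fold change was -1.12 (SE 0.35, adjusted p = 0.102).

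Detection set the genotypes apart after ISO in 1 direction only. On 3 of 3 DTG ISO arrays and 0 of 3 TG ISO arrays, 54 humanlincRNA probes were detected (4.89% of the 1104), and 0 showed the reverse. For all probes the counts were 1725 (2.83%) and 5. Of the 54, 50 were also detected on DTG vehicle 3, 24 on at least 1 of the other DTG vehicle arrays and 33 on at least 1 TG vehicle array. The lower bound of the difference was at least 2-fold for 6, from 1.5-fold to under 2-fold for 12, from 1-fold to under 1.5-fold for 29, and under 1 for 7, for which no fold can be given.

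For the 3 with the highest bounds, the 4 scan 1 arrays lay above the other 8. humanlincRNA0958+_P1 had levels of -4.16, -3.75 and -7.13 in TG vehicle, -4.98, -6.71 and -6.11 in TG ISO, -4.15, -3.71 and -2.65 in DTG vehicle, and -2.40, -2.28 and -1.33 in DTG ISO, a difference after ISO of at least 5.36-fold (adjusted p = 0.0719). humanlincRNA0495+_P1 had levels of -5.38, -4.45 and -3.93 in TG vehicle, -4.92, -5.16 and -5.38 in TG ISO, -5.15, -4.41 and -3.05 in DTG vehicle, and -2.60, -2.78 and -2.0 in DTG ISO, at least 3.91-fold (adjusted p = 0.0719). humanlincRNA0740-_P1 had levels of -4.40, -4.43 and -6.36 in TG vehicle, -5.36, -5.41 and -4.69 in TG ISO, -4.17, -4.64 and -2.87 in DTG vehicle, and -2.88, -2.63 and -3.16 in DTG ISO, at least 2.90-fold (adjusted p = 0.079). In each of the 3, DTG vehicle 3 was the highest DTG vehicle array and lay within or nearest to the DTG ISO levels.

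The number of calls after ISO depended on a few arrays and on which groups were fitted. Without DTG vehicle 3, which is not in the comparison but adds to the shared estimate of the spread, 59 humanlincRNA probes (15.5%) were called, beside 6.57% of all probes. Without TG vehicle 3 there were 48 (12.6%, beside 6.33%), and without TG ISO 3 there were 19 (beside 4.02% of all probes). Without both of the last 2 there were 117, of which 108 were higher in DTG ISO, but their share, 30.8%, was close to the 30.6% of all probes. With the 2 ISO groups fitted alone, 92 (24.1%) were called, 90 of them higher, beside 8.96% of all probes. With scan as a block, for which DTG vehicle is the only link between scan 1 and scan 2, 0 were called by limma, 5 were higher and 4 lower at an unadjusted p under 0.05 (2.36% in all, beside 1.57% of all probes), and the median log2 fold change was 0.032, beside 0.048 over all probes. Among the named probes detected on all 12 arrays, the log2 fold change of humanlincRNA1050+_P1 went from -2.68 to -1.77 under that block and that of humanlincRNA0806+_P1 from -1.12 to -0.45.

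Whether the response to ISO differed between the genotypes was tested by the interaction. Of the 381 humanlincRNA probes 0 were called by limma, beside 0% of all probes, and 26 were above and 4 below 0 at an unadjusted p under 0.05, where all probes gave 2.71% and 1.63%. The median interaction was 0.22 over the 381 and 0.048 over all probes, but -0.018 over all 1104 humanlincRNA probes without the filter. Leaving out 1 array gave medians of 0.12 (without TG vehicle 1) to 0.45 (without DTG vehicle 3), with 0.14 without DTG vehicle 2 and 0.42 without TG vehicle 3. On the positive side, the rule named humanlincRNA0229-_P1, detected in DTG ISO only, and humanlincRNA0623+_P1, detected in DTG ISO and on TG vehicle 1 (adjusted p = 0.928 for each). As the other levels of both were not well above background, the size of their interactions cannot be read. The latter had levels of -2.63, -5.86 and -5.37 in TG vehicle and -6.42, -6.98 and -6.13 in TG ISO, so that TG vehicle 1 alone set the high mean of its group. On the negative side were humanlincRNA1050+_P1, detected on every array, at -3.34 (SE 0.81, adjusted p = 0.928), and humanlincRNA1563+_P1, not detected in TG vehicle (adjusted p = 0.928). Without TG vehicle 3 and TG ISO 3, 22 of 380 humanlincRNA probes (5.79%) were called, 18 above and 4 below 0. Of all probes 8.92% were called, 1512 above and 2515 below 0. In this fit, a description since the 2 arrays left out were picked by their levels, the interaction of humanlincRNA1050+_P1 was -3.89 (limma adjusted p = 0.0309).

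Both the plus and the minus probe were tested for 70 pairs. Between DTG ISO and TG ISO, 9 pairs had both probes higher at an unadjusted p under 0.05, 0 had both lower, 0 had them past it in opposite directions, 29 had 1 probe past that threshold and 32 had none. Between the vehicle groups 3 pairs had both probes higher, and in the other 3 comparisons 0 pairs had both past the threshold. The pair humanlincRNA1016 was tested in full, and its plus probe differed between DTG ISO and TG ISO by a log2 fold change of 1.22. The minus partner of humanlincRNA1050+_P1 differed by 0.49 in the same comparison, while the plus probe went the other way.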

How the data were processed

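LV RNA of 12 mice, 3 per group, was measured on 1-colour (Cy3) Agilent arrays, 1 per mouse. Per the labels, rRNA was removed and the remainder amplified with random primers. The authors deposited Feature Extraction 11.0.1.1 output for each array. The deposited intensity of each spot was background-subtracted by that software and not scaled between arrays, per the file headers. A table of log2 values, which the authors normalized by a method not given in the sources used here, served as an alternative. Groups, replicate numbers and ages came from the labels. No sample column was left unused (0). Scans came from the file headers. The slide factor set the arrays of scan 1 against all others, so it differed from scan only in merging the remaining scans. Blocks for scan and for slide are therefore not separate checks.

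Of 62939 spots per array, 61500 were not controls. The log2 of the processed signal minus that of the array's 75th percentile was used. Outlier spots (1166 over the 12 arrays) were dropped, and replicate spots were averaged. All probes detected on 3 or more arrays were fitted with limma (version 3.58.1, R 4.3.3), using 4 group means and 8 residual degrees of freedom. Tests were two-sided, with Benjamini-Hochberg adjustment over every probe tested and a threshold of 0.05. The fit was tested on simulated data. A lower bound sets the mean of the bright group against, for each dim array, the higher of the probe's own level and the dimmest detected level. It is a difference of means without sampling error, so the words at least refer to the detection limit only. The number of arrays limits the precision, and 3 against 3 cannot reach an exact permutation p below 0.1.

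Probes were named by a rule. Per comparison it took up to 3 in each direction (2 for the interaction) with the lowest unadjusted p under 0.05, detected on all 3 arrays of a compared group and, for pairs of groups, without overlap. It also took the 3 steadiest and 3 most variable probes of those detected on every array, and, per pair of groups, up to 3 with the highest bound among those detected on 3 arrays of one group and 0 of the other. Members and lists were chosen with earlier results of these data known. Cell type markers were not analysed here, since none of the 15 probes paired with an accession in the files matched one (0).

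Alternatives were normexp background correction (offset 50, on the median spot signal), quantile normalization, the authors' log2 values, both no filter and detection on every array as filter, a fit of only the groups compared, a block for replicate number, scan or slide, leaving out each array, leaving out TG vehicle 3 and TG ISO 3 together, 2 other detection thresholds and the methods' t-test. The threshold at a 32nd of the 75th percentile and the fits within 1 scan were chosen after seeing the data. TG vehicle 3 and TG ISO 3 were picked out by their levels, so fits without both are descriptions.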

Additional observations from a re-analysis of the deposited data

Results flagged for a closer look

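In 3 of the named humanlincRNA probes every ISO array lay on one side of the vehicle arrays in TG mice and on the opposite side in DTG mice. Over all 12 arrays, the limma interaction did not pass the threshold for any of them (adjusted p = 0.928 for each, with 3 arrays per group). humanlincRNA1050+_P1 was higher with ISO in TG mice by a log2 fold change of 1.22 and lower in DTG mice, at -2.12, an interaction of -3.34. This probe was detected on all 12 arrays, and with scan as a block its interaction was -2.70 and not called. Without TG vehicle 3 and TG ISO 3, a fit that is a description as above, it was -3.89 and called (limma adjusted p = 0.0309). For the other two, 6 or more of the 12 levels were not well above background, so their fitted values do not measure a change in size. humanlincRNA2433-_P1 was detected on 1 of 6 TG arrays, a vehicle array, on 2 of 3 DTG vehicle arrays and on 3 of 3 DTG ISO arrays, with fitted log2 fold changes of -1.05 in TG and 0.80 in DTG mice and an interaction of 1.85. humanlincRNA0623+_P1 was detected on 1 of 6 TG arrays, TG vehicle 1, on 0 of 3 DTG vehicle arrays and on 3 of 3 DTG ISO arrays, with fitted values of -1.89 and 1.83 and an interaction of 3.72, while the bound between the DTG groups was at least 1.04-fold. The 3 were seen among probes named partly for such separations.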

How the results depend on the processing

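The counts of called humanlincRNA probes, 0 in each of the 5 comparisons, were most open to the choice of arrays. Without TG vehicle 3 and TG ISO 3 together, 30 were called for ISO in TG mice (74 at an unadjusted p under 0.05), 117 for genotype after ISO and 22 for the interaction (81 unadjusted), shares of 7.9%, 30.8% and 5.79% of those tested, beside 17.1%, 30.6% and 8.92% of all probes. The unadjusted shares were 19.5% for ISO in TG mice and 21.3% for the interaction, beside 31.7% and 27.6% of all probes. Leaving out 1 array at a time, calls ranged from 0 to 21 (beside 1.75% of all probes) for ISO in DTG mice and from 0 to 59 (beside 6.57%) for genotype after ISO. For the interaction they ranged from 0 to 3, where 88 of 45142 probes were called. Unadjusted counts ran from 10 (2.625%, beside 1.32%) to 42 (11%, beside 12.6%) for ISO in TG mice. They ran from 16 (4.2%, beside 1.66%) to 130 (34.1%, beside 15.2%) for ISO in DTG mice. Genotype gave 29 (7.61%, beside 3.2%) to 82 (21.5%, beside 8.01%) in vehicle and 102 (26.8%, beside 16.3%) to 167 (43.8%, beside 33%) after ISO. The interaction gave 17 (4.46%, beside 2.03%) to 92 (24.15%, beside 10.9%). The highest values came without DTG vehicle 3 for ISO in DTG mice, for calls after ISO and for the interaction, without TG vehicle 3 for ISO in TG mice and for unadjusted counts after ISO, and without TG vehicle 1 for genotype in vehicle. Among single arrays, only leaving out DTG vehicle 3, TG vehicle 3 (48 calls after ISO) or TG ISO 3 (19) gave any call.

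For genotype after ISO, quantile normalization gave 1 call, where all 45143 probes gave 11. The authors' log2 values gave 1 call, the only 1 among 45060 probes. The compared groups alone gave 92 (beside 8.96% of all probes) and the methods' t-test 20 (beside 2.39%). Arrays of scan 2 only gave 31 calls (8.16%, beside 11.5%) and 76 unadjusted (20%, beside 30.8%) for ISO in TG mice. Unadjusted counts follow in the order main, normexp and filter on all 12 arrays, which tests fewer probes by construction. Each has its share and that of all probes in brackets. ISO in TG mice gave 18 (4.72%, beside 1.84%), 4 (1.05%, beside 0.877%) and 2 (1.63%, beside 1.02%). ISO in DTG mice gave 50 (13.1%, beside 5.81%), 16 (4.2%, beside 4.3%) and 11 (8.94%, beside 5.28%). Genotype in vehicle gave 52 (13.65%, beside 5.24%), 9 (2.36%, beside 3.22%) and 15 (12.2%, beside 3.96%). Genotype after ISO gave 140 (36.75%, beside 26.7%), 55 (14.4%, beside 25.4%) and 36 (29.3%, beside 27%). The interaction gave 30 (7.87%, beside 4.35%), 14 (3.675%, beside 3.25%) and 5 (4.07%, beside 3.97%). Scan or slide as a block gave 5 and 6 for ISO in DTG mice, 9 and 10 for genotype after ISO and 6 and 8 for the interaction, and scan gave 32 for genotype in vehicle. The methods' t-test gave 10 (2.63%, beside 1.8% of all probes), 22 (5.79%, beside 5.39%) and 19 (4.99%, beside 2.37%) for the first 3 comparisons. The compared groups alone gave 29 (7.61%, beside 2.955%) for genotype in vehicle. Unless named above, the cause was not tested.

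The split of unadjusted counts moved with the scaling. Higher and lower were 15 and 11 (quantile) and 4 and 0 (normexp) for ISO in TG mice, 33 and 7 and 12 and 4 for ISO in DTG mice, and 22 and 9 and 9 and 5 for the interaction, against 12 and 6, 46 and 4, and 26 and 4. Probes detected on every array numbered 123, but 234 above the 95th percentile of the negative controls and 192 above a 32nd of the 75th percentile. The median log2 fold change changed sign for ISO in TG mice (-0.13 with no filter, -0.080 under normexp, -0.10 without TG vehicle 3, -0.038 without TG ISO 3, -0.16 without both or with scan 2 only), for ISO in DTG mice (-0.11 with no filter, -0.052 under normexp, -0.051 with scan or slide as a block), for genotype in vehicle (-0.20 with no filter, -0.018 under normexp), and for genotype after ISO with no filter (-0.12), and for the interaction with no filter (-0.018) and with scan or slide as a block (-0.064). Of the named log2 fold changes, 1 reversed, humanlincRNA0388-_P1 for ISO in DTG mice, from 0.39 to -0.1906 under normexp. Under normexp the median size of the change over the humanlincRNA probes tested was smaller, for genotype after ISO 0.17 in place of 0.76. That setting changed the spot signal used, the background correction and the offset together, and which of them mattered was not tested. The replicate numbers did not pair the arrays: same-numbered deviations correlated at -0.77 to 0.18. With replicate number as a block, 0 were called in each comparison and unadjusted counts fell, for all probes too. Signal near background limits the 258 probes detected on 3 to 11 arrays.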
